A study of Mus musculus with 3 samples.

Results

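The genes described here encode the Fc gamma receptors of the mouse and the proteins that carry their signal into the cell: Fcgr1, Fcgr2b, Fcgr3, Fcgr4, the shared signalling chain Fcer1g and the kinase Syk. They are 6 of the 21627 protein-coding genes that RefSeq places on autosomes or X. For each gene, all Foxp3 peaks over its RefSeq span and 5 kb beyond both ends were taken from the deposited peak lists in mm10 coordinates. The members were picked by gene name, with earlier results of these data known. Foxp3 occupancy was assayed by CUT&RUN, in which an antibody brings a nuclease to its target on the chromatin and the fragments cut free are sequenced, in bone marrow-derived macrophages (BMDMs) raised in medium conditioned with MCSF. The cells were lightly fixed with 0.1% formaldehyde for 2 min, and a commercial kit from CST was used. Both libraries analysed are Foxp3 replicates made with antibody FJK-16s and are given below as replicates 1 and 2. A library made with an isotype IgG belongs to the series, and none of its values were used here, so the dependence of any site on the Foxp3 antibody was not tested. The title of the series names stimulation by brain-derived DAMPs (molecules released by damaged tissue), and the labels do not say which samples were stimulated. Neither do they say whether the replicates are separate cultures.

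Fc gamma receptors bind the constant part of IgG and let macrophages take up particles that antibodies have coated. The activating receptors Fcgr1, Fcgr3 and Fcgr4 signal through Fcer1g, whose cytoplasmic tail holds an ITAM, a tyrosine motif that Src family kinases phosphorylate. Syk docks on the phosphorylated ITAM and passes the signal to phospholipase C, PI3-kinase and the actin machinery. Fcgr2b is the inhibitory receptor, with an ITIM that recruits the phosphatase Inpp5d. Foxp3 is a forkhead transcription factor known mainly from regulatory T cells.

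Peaks of both replicates lay over a listed promoter window of Fcer1g and Syk, and no peak lay over those of the 4 receptor genes or over the second window of Syk. These 2 of 6 genes stand next to 46.3% of all genes. With replicate 1 reduced to as many peaks as replicate 2, ranked by fold, Syk alone had such a site. Ranked by −log10 q instead, both genes had one. The sequences of 4 of these windows, from 250 bases before to 50 bases after a transcription start, are given first to show which bases the peaks covered. They are RefSeq sequences of GRCm38.p6, written 5′ to 3′ on the strand of the gene. In Fcer1g (chr1:171234300-171234599, minus strand) and in the upstream start of Syk (chr13:52583187-52583486, plus strand), capitals mark bases under peaks of both replicates. In Fcgr1 (chr3:96293920-96294219, minus strand) and Fcgr4 (chr1:171018676-171018975, plus strand), where no base lay under a peak, capitals mark the words AGGAAG (a core of PU.1 sites) and TTCNNNGAA (the GAS element bound by Stat proteins) on either strand.
Fcer1g: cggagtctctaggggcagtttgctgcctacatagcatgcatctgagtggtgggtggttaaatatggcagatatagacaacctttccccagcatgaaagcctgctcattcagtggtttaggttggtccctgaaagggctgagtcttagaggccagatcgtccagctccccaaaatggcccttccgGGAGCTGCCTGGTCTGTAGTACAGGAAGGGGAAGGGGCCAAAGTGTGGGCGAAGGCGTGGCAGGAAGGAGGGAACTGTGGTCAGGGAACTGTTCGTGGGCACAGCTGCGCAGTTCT
Syk: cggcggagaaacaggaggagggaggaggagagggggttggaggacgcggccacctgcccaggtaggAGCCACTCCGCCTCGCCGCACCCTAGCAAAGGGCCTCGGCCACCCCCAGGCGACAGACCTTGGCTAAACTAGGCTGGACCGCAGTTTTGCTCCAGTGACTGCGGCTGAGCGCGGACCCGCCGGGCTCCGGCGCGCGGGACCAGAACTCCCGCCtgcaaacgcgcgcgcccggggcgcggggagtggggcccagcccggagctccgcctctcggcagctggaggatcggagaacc
Fcgr1: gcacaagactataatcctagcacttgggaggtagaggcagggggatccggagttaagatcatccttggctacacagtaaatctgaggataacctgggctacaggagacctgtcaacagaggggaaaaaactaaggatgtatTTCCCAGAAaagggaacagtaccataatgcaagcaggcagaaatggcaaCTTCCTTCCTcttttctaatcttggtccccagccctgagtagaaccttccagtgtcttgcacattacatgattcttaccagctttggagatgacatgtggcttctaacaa
Fcgr4: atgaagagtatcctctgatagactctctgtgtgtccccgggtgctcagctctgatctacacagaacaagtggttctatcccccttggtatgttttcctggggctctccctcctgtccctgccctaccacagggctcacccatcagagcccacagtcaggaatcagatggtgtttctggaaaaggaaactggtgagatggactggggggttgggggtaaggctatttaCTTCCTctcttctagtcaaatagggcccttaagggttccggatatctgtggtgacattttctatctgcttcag

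Replicate 1 held 33294105 fragments and 556535 peaks, and replicate 2 held 34898401 fragments and 95135 peaks. At a similar number of fragments the lists differ in how many sites were called, and what sets this difference was not tested. A site missing from a list is one that was not called there. Peaks in replicate 1 had at least 10 fragments at the summit and those in replicate 2 at least 13, and calling weighed each site against the background around it, so no single height was the limit. Peaks were also seen at genes of other lineages, with sites in both replicates at 9 of 10 macrophage markers and at 10 of 10 T and B cell markers, against 82.7% of all protein-coding genes. Peaks near marker genes thus did not separate cell types, and the labelled cell type could not be checked from these files.

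Over the 6 genes and their flanks, which cover 183 kb, replicate 1 had 68 peaks and replicate 2 had 12. All 6 genes had a peak in replicate 1 (96.6% of all genes did) and 5 had a peak in replicate 2 (83.0% of all genes). A peak in both replicates was found at 5 of 6 genes (83.3%, 95% exact binomial interval 35.9 to 99.6%), next to 82.7% of all protein-coding genes. The share over the members was thus that of genes in general, and Fcgr2b was the gene without a peak in replicate 2. Peak density pooled over the members was 3.71 per 10 kb in replicate 1 and 0.655 in replicate 2. Pooled over all genes with the same flanks it was 2.69 and 0.520, and the median gene had 3.06 and 0.616. Syk alone held 32 of the 68 and 6 of the 12 peaks. As percentiles of density among all genes, members ran from 36.7 (Fcgr1) to 80.9 (Fcgr2b) in replicate 1. In replicate 2 those with a peak ran from 40.6 (Fcgr1) to 84.1 (Fcer1g).

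The sharing of peaks between the replicates was counted at these genes and over all peaks. Of the 12 replicate 2 peaks, 6 overlapped a replicate 1 peak by at least 1 bp (50%, interval 21.1 to 78.9%), next to 53.8% of all replicate 2 peaks. With an overlap of at least 50% of both lengths, 2 of the 12 were shared (16.7%, 2.09 to 48.4%), next to 32.9% of all replicate 2 peaks. By gene, 5 of 6 had a pair overlapping by 1 bp, against 75.9% of all genes, and 2 of 6, Fcgr3 and Fcgr4, had a pair at the stricter overlap, against 63.5% of all genes. Both intervals for the members are wide and hold the value for all peaks.

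**Figure D1:**
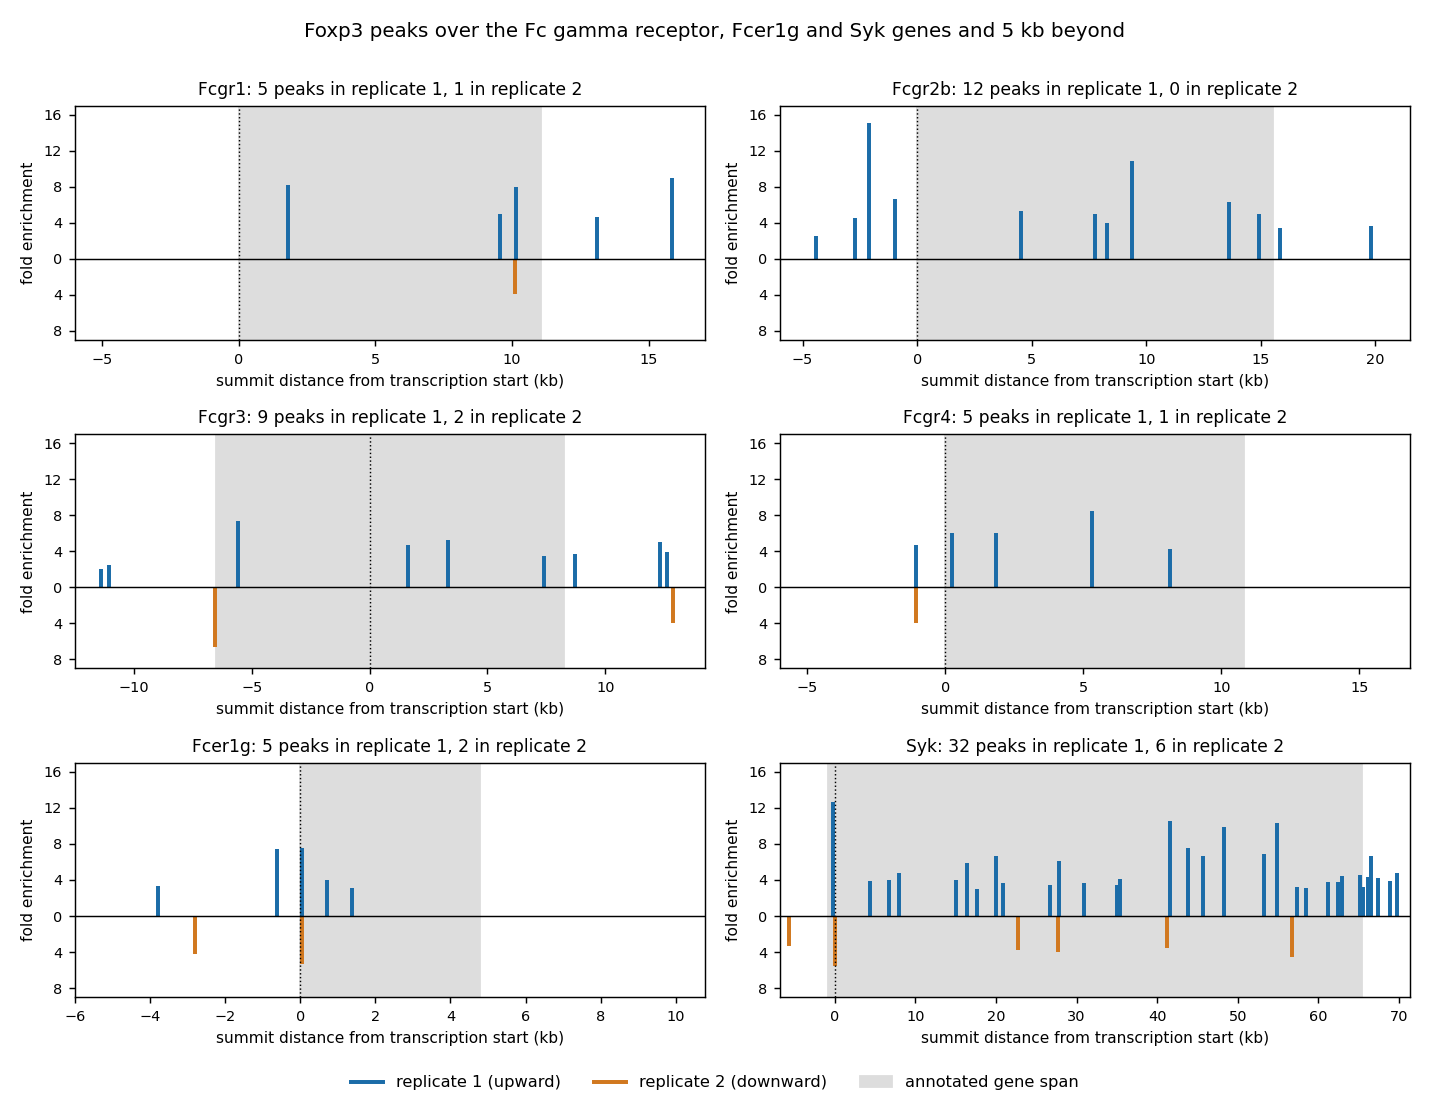
Foxp3 peaks over each gene and 5 kb beyond, placed by the distance of the summit from the first transcription start listed in RefSeq (kb, positive into the gene). Bars give the deposited fold enrichment, upward for replicate 1 and downward for replicate 2, and grey marks the annotated span. Bars of both replicates stand at the start in Fcer1g and Syk, about 1 kb before it in Fcgr4, and near the far end in Fcgr1, while Fcgr2b has bars of replicate 1 alone.

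Fcgr1 encodes CD64, the high-affinity receptor, and spans chromosome 3 from 96282909 to 96293969 on the minus strand. Fold enrichments of its 5 replicate 1 peaks lay between 4.60 and 8.99, and the single replicate 2 peak had 3.93. Fold enrichment is the authors' ratio of the summit pileup plus 1 to a background term from the same library. The replicate 2 peak (96283831 to 96284204) overlapped a replicate 1 peak (96283722 to 96283889, fold enrichment 8.002) by 59 bp, with summits 24 bp apart. The mean fold enrichment of this pair was 5.96 ± 2.88 (SD, n = 2), and the summits were 30 fragments high in replicate 1 and 19 in replicate 2. It lay inside the gene 10140 and 10116 bp downstream of the start, near the 3′ end. The nearest peak to the start was 1660 bp away in replicate 1 and 5444 bp away in replicate 2.

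Fcgr2b encodes the inhibitory receptor CD32 and spans chromosome 1 from 170960558 to 170976071 on the minus strand. Replicate 1 had 12 peaks, whose fold enrichments had a median of 5.03 and lay between 2.57 and 15.1, and replicate 2 had none. The strongest (170978142 to 170978343) had a summit pileup of 56 fragments, 2118 bp upstream of the start, within the span of the lncRNA Gm34968. The next, with a fold enrichment of 10.8, lay inside the gene. The nearest replicate 2 peak began 7135 bp upstream of the gene. Fcgr2b therefore held the highest fold enrichment of the 6 genes in replicate 1 and no site in replicate 2.

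Fcgr4 encodes CD16-2, an activating receptor, and spans chromosome 1 from 171018926 to 171029761 on the plus strand. Its 5 replicate 1 peaks had fold enrichments between 4.23 and 8.46, and its single replicate 2 peak had 3.93. That peak (171017739 to 171017965) contained a whole replicate 1 peak (171017745 to 171017902). Their summits, 6 bp apart, lay 1075 and 1081 bp upstream of the start. The fold enrichments of this pair were 4.76 and 3.93 (mean 4.34 ± 0.590, SD, n = 2), with pileups of 17 and 19 fragments. Both replicates thus put a site at the same place, near the middle of each list by fold. In replicate 1, 48.8% of all peaks had an equal or lower fold enrichment, and in replicate 2 it was 48.9%. A further replicate 1 peak with a fold enrichment of 6.08 began 149 bp inside the gene and had no counterpart in replicate 2.

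Fcgr3 encodes CD16, the low-affinity activating receptor, and spans chromosome 1 from 171051169 to 171065915 on the minus strand. Its pair of peaks was alike in extent but not in summit, since the summits lay 945 bp apart, the widest gap of the 6 overlapping pairs. Replicate 1 had a peak of 2378 bp (171063891 to 171066268) and replicate 2 a peak of 2409 bp (171063803 to 171066211), which overlapped by 2321 bp, or 97.6% and 96.3% of their lengths. Their fold enrichments were 7.42 and 6.64 (mean 7.03 ± 0.548, SD, n = 2), with pileups of 399 and 266 fragments. In replicate 1, peaks 140 and 104 fragments high with fold enrichments of 2.48 and 2.00 lay farther along the flank. The other 6 replicate 1 peaks and the other replicate 2 peak over this gene were at most 19 fragments high. Over all peaks, 99.98% in replicate 1 and 99.8% in replicate 2 had a lower pileup.

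These peaks covered the upstream limit of the annotated span of Fcgr3, and not the starts in the promoter table. That table gives starts at 171059394 and 171059403, and the nearer edge of the overlap was 4488 bp upstream of 171059403. The promoter windows of Fcgr3 used here are those of these listed starts, and no window was given for the upstream limit. The overlap held 4 whole tRNA genes (n-TEctc5, n-TGtcc1, n-TDgtc3 and n-TLcag6) and the miRNA gene Mir6546. They belong to an array in which 5 tRNA genes recur 3 times at spacings of 7628 and 7614 bp, from 171064164 to 171081946. Replicate 1 had 11 peaks over this array and replicate 2 had 7, and 7 of its 15 tRNA genes lay under peaks of both replicates. Of all 408 tRNA genes on the autosomes and X, 12 did (2.94%, 1.53 to 5.08%), and 8 of those 12 were within 50 kb of Fcgr3.

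The background term of the same libraries was raised over this stretch. At the Fcgr3 peaks it was 53.9 fragments in replicate 1, 14.3 times the median over all peaks of that library, and 40.2 fragments in replicate 2, 7.89 times the median. It was lower at 99.98% and 99.8% of all peaks in replicates 1 and 2. The fold enrichments are therefore modest beside the pileups. Near-identical tRNA repeats can share reads, and the part of such sharing in these values was not tested. Without peaks over tRNA genes, an alternative added after seeing the data, Fcgr3 had no shared site.

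**Figure D2:**
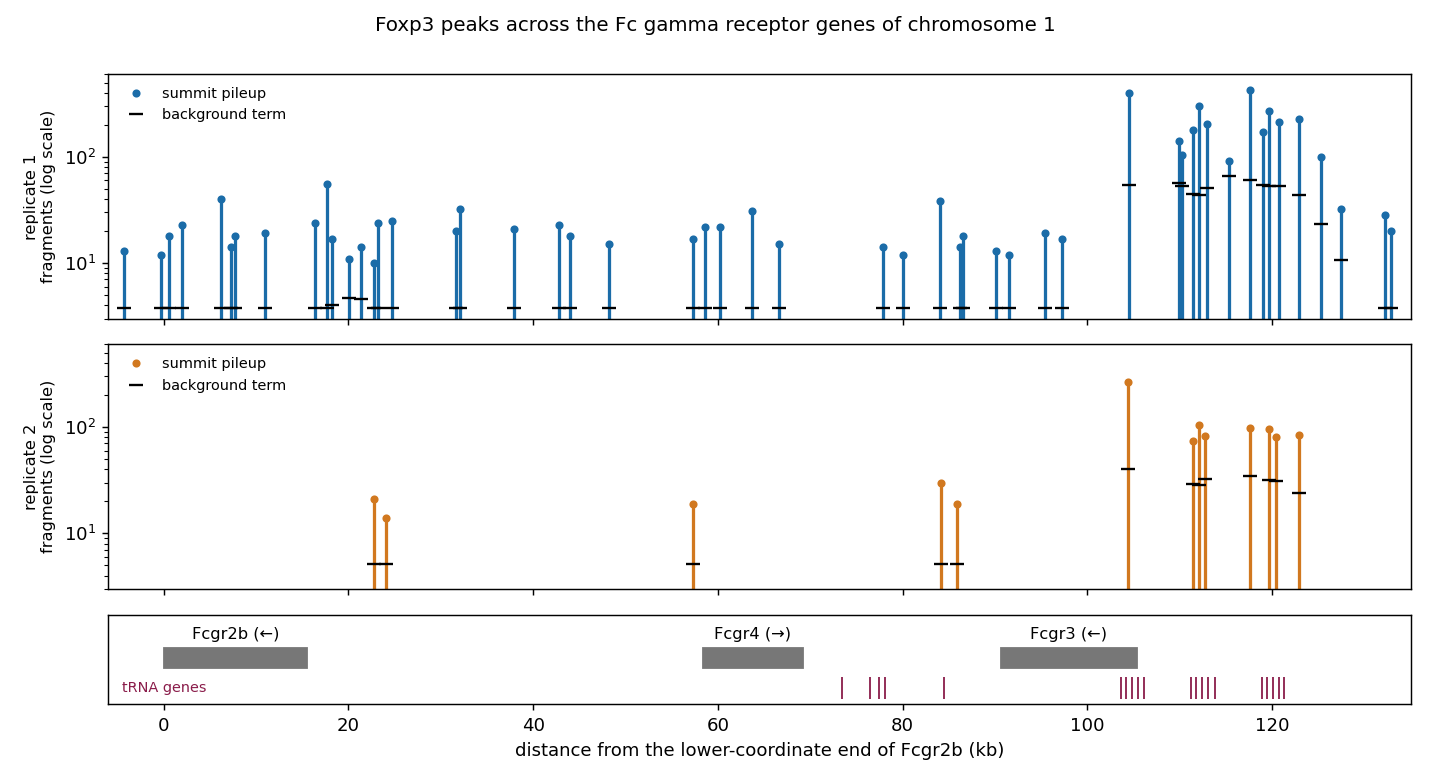
Peaks along the chromosome 1 stretch that holds Fcgr2b, Fcgr4 and Fcgr3, by distance from the lower-coordinate end of Fcgr2b (kb). Dots give the summit pileup and black dashes the background term (fragments, log scale) in replicate 1 (upper) and replicate 2 (middle); the lower strip shows the genes with their direction and the tRNA genes as ticks. Both pileup and background rise over the tRNA array beside Fcgr3, where the peaks at the upstream limit of Fcgr3 have 399 fragments in replicate 1 and 266 in replicate 2, and a replicate 1 peak farther along the array has 427.

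Fcer1g encodes the ITAM-bearing chain and spans chromosome 1 from 171229572 to 171234349 on the minus strand. Its 5 replicate 1 peaks had fold enrichments between 3.15 and 7.52, and its 2 replicate 2 peaks had 4.22 and 5.35. The strongest peak of replicate 1 (171234009 to 171234415) and that of replicate 2 (171234216 to 171234441) both lay over the start. Their summits were 3 bp apart and lay 61 and 58 bp inside the gene. The mean fold enrichment was 6.44 ± 1.53 (SD, n = 2), with pileups of 42 and 33 fragments. The overlap of 200 bp was 88.5% of the replicate 2 peak and 49.1% of the longer replicate 1 peak, just short of the 50% that counts as shared. Within the promoter window, the bases under both peaks run from 66 before the start to the end of the window 49 after it, as the capitals show. The overlap of the peaks runs on into the gene beyond the window.

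Syk, the kinase that docks on the ITAM, spans chromosome 13 from 52582610 to 52648792 on the plus strand. It is the longest of the 6 genes at 66.2 kb. Its 32 replicate 1 peaks had a median fold enrichment of 4.28 (range 2.96 to 12.7), and its 6 replicate 2 peaks had a median of 3.86 (range 3.34 to 5.50). As in Fcer1g, the strongest peak by fold of replicate 1 (52582910 to 52583405) and that of replicate 2 (52583253 to 52583574) lay at the upstream start. The fold enrichments were 12.7 and 5.50 (mean 9.10 ± 5.09, SD, n = 2), with pileups of 47 and 27 fragments. The peaks overlapped by 153 bp, and their summits were 257 bp apart, 249 bp before the start in replicate 1 and 8 bp after it in replicate 2. A second start listed at 52596882 lay under no peak. Farther inside the gene, peaks with fold enrichments of 10.51 in replicate 1 and 3.57 in replicate 2 overlapped by 214 bp, with summits 28.1 and 27.8 kb downstream of that second start.

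The order of the genes by their strongest peak differed between the replicates. In replicate 1 Fcgr2b was highest, followed by Syk with 12.7, Fcgr1 with 8.99, Fcgr4 with 8.46, Fcer1g with 7.52 and Fcgr3 with 7.42. In replicate 2 Fcgr3 was highest with 6.64, followed by Syk with 5.50, Fcer1g with 5.35, Fcgr1 and Fcgr4 with 3.93 each, and Fcgr2b with no peak. Syk kept the second place in both. The means over replicates of Fcgr1 (6.46 ± 3.58), Fcgr3 (7.03 ± 0.548), Fcgr4 (6.20 ± 3.21), Fcer1g (6.44 ± 1.53) and Syk (9.10 ± 5.09; SD, n = 2 each) hold the difference in scale between the libraries, so these SDs do not serve to compare genes. As percentiles among all genes in replicates 1 and 2, Fcgr1 stood at 26.3 and 27.4, Fcgr4 at 22.8 and 27.4, and Syk at 54.1 and 59.0. Fcer1g stood at 17.03 and 55.6, Fcgr3 at 16.8 and 79.3, and Fcgr2b at 70.7 in replicate 1 with no peak in replicate 2. By the strongest peak, Syk was above Fcgr1 and Fcgr4 in both replicates, and the place of the other 3 genes changed with the replicate. That peak was the highest of 32 and 6 over Syk, against 5 and 1 over Fcgr1 and over Fcgr4. By the median fold enrichment, Syk was below both. In replicate 1 the medians were 4.28 for Syk, 8.002 for Fcgr1 and 6.08 for Fcgr4. In replicate 2 they were 3.86 for Syk and 3.93 for Fcgr1 and Fcgr4. The part of gene length in this order was not tested. The strongest peak of the median member had a fold enrichment of 8.73 in replicate 1 and 4.64 in replicate 2, against 12.2 and 5.10 for the median of all genes. With −log10 q in place of fold enrichment, Fcgr3 came first in both replicates, and Syk moved from rank 2 to rank 3 in both.

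**Figure D3:**
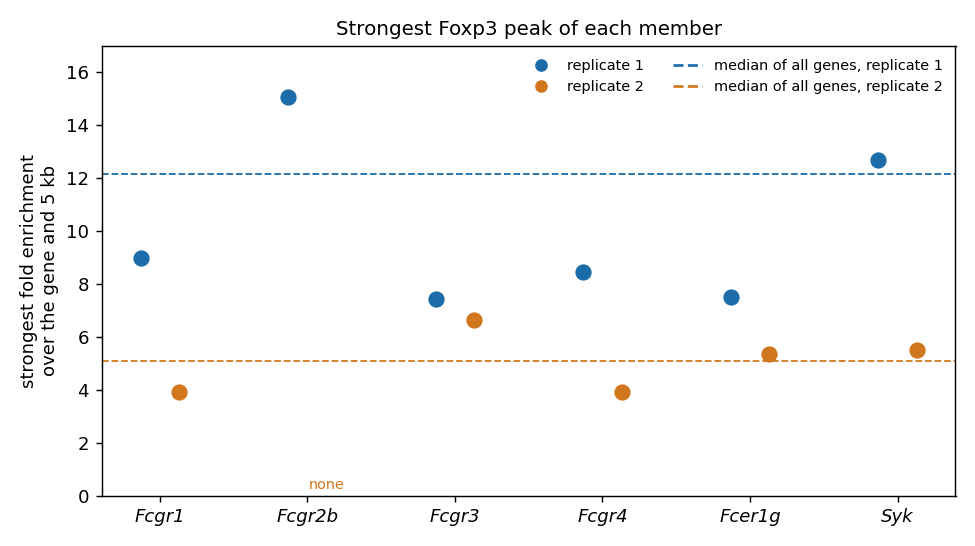
Fold enrichment of the strongest peak over each gene and 5 kb in replicate 1 (blue) and replicate 2 (orange), with dashed lines at the median of all protein-coding genes (12.2 and 5.10). In replicate 1 Fcgr2b and Syk lie above the line, and in replicate 2 Fcgr3, Fcer1g and Syk do.

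A RefSeq promoter window was given for all 6 members and for 17273 of the 21627 genes. Peaks of both replicates lay over a window at 2 of 6 members (33.3%, 4.33 to 77.7%), next to 46.3% of all genes. The same 2 genes were found with replicate 1 taken by itself (63.9% of all genes) and with replicate 2 taken by itself (50.6%), so the replicates did not disagree on any member. Within 1 kb of a start, Fcgr4 joined them and 3 of 6 members had peaks of both replicates, next to 61.1% of all genes. At Fcgr4 these were different peaks, 149 bp inside the gene in replicate 1 and 961 bp upstream in replicate 2. Within 1 kb of either annotated end it was 5 of 6, next to 62.2% of all genes. The end sites were the 3′ end for Fcgr1 and the tRNA array for Fcgr3. None of these shares for the members stands apart from that of all genes, given intervals this wide.

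Among the member windows, the 2 under peaks of both replicates had the highest share of G and C. The upstream Syk window was 72% G and C and the Fcer1g window 55.7%, against 45.0 to 51% in the first listed windows of the receptor genes. Over all 21044 windows of protein-coding genes, those with peaks of both replicates had a median of 65% and the others 50.3%. The median of all windows was 56.7%, which Syk exceeded and Fcer1g did not. The word AGGAAG was present in the Fcer1g, Fcgr1, Fcgr3 and Fcgr4 windows and in 34.1% of all windows, and in Fcer1g it occurred at 2 places, both under the peaks. The GAS word TTCNNNGAA was present in Fcgr1 alone, from 109 to 101 bases before the start, and in 7.76% of all windows. The forkhead word TGTTTAC was in no member window and in 3.03% of all windows. The repeated forkhead word TGTTTGTTT was found in the second Syk window, which had no peak, and in 1.44% of all windows. The AP-1 word TGANTCA was in no member window and in 7.04% of all. Each word was searched on both strands. AGGAAG and the others did not overlap each other in these windows, although AGGAAG overlapped itself in Fcgr1. TGTTTAC was in 1.71% of the windows with peaks of both replicates and in 4.02% of the others, and AGGAAG was in 29.5% and 37.5%. The G and C content of those windows differed as given above, and its part in these shares was not tested.

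The wider pathway was described with the same measure. Among Src and Tec family kinases, the enzymes that phosphorylate the ITAM and act beside Syk, 5 of 6 with a promoter window had peaks of both replicates over it, and Btk did not. The interval for this share was 35.9 to 99.6%, which holds the 46.3% of all genes. Yes1 had strongest fold enrichments of 18.2 and 6.69 in replicates 1 and 2, Fyn had 15.98 and 7.40, and Tec had 15.7 and 5.59. Of the adaptors and effectors downstream of Syk, 16 of 22 (72.7%, 49.8 to 89.3%) had such promoter peaks, next to the 46.3% of all genes. By the strongest peak anywhere over the gene and 5 kb, the leading members were Pik3cb, a catalytic subunit of PI3-kinase, with 23.9 and 8.55, and the adaptors Grb2 with 19.6 and 7.08 and Crk with 20.9 and 6.83. Grb2 was among the 6 genes without promoter peaks of both replicates. All 25 genes of this list had a peak within 5 kb in both replicates, next to 82.7% of all genes. Their median span of 53.4 kb exceeds the 17.3 kb of all genes.

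Of the inhibitors of this signal, 5 of 10 with a promoter window had promoter peaks of both replicates (18.7 to 81.3%), next to 46.3% of all genes. Cblb, a ubiquitin ligase, had strongest fold enrichments of 19.8 and 7.42, the receptor Sirpa 25.9 and 5.82, and the adaptor Dok2 14.1 and 6.41; Sirpa and Dok2 had no promoter window in the table. Inpp5d, the phosphatase that Fcgr2b recruits, and Ptpn6, both chosen after their values were seen, had none over the promoter window.

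The receptor lists were counted in the same way. Over all genes, 46.3% had promoter peaks of both replicates and 82.7% had a peak within 5 kb in both. Other Fc and Fc-like receptors had promoter peaks of both replicates in 0 of 12 cases (interval up to 26.5%), although 4 of 12 had one in replicate 1, 1 of 12 had one in replicate 2 and 9 of 12 had a peak within 5 kb in both. The counts in the lists that follow are of genes with a promoter window. Fcrlb had strongest fold enrichments of 13.7 and 9.25, the IgM receptor Fcmr 19.8 and 5.69, and the IgA and IgM receptor Fcamr 20.6 and 4.91. Lectin and Ig-like receptors that signal through Syk had promoter peaks in 0 of 9 cases (interval up to 33.6%). They had a peak within 5 kb in both replicates in 3 of 10 (6.67 to 65.2%). Their median span was 11.1 kb, against 17.3 kb for all genes. Oscar, a partner of Fcer1g, had 16.5 and 7.26, while Clec4d had 7.67 and 4.12 and Clec4e, also an Fcer1g partner, 5.29 and 4.12. Trem receptors had promoter peaks in 0 of 4 cases, with an interval up to 60.2% that holds the share of all genes. Trem2 had 27.4 and 10.6, whereas Treml4 had 11.8 and 4.12 and Trem3 10.7 and 4.12. Of the other ITAM chains and Zap70, 0 of 6 had promoter peaks of both replicates (interval up to 45.9%). It was 5 of 6 in replicate 1 (63.9% of all genes) and 0 of 6 in replicate 2 (50.6%). Zap70, the relative of Syk in T cells, had 14.0 and 3.90, Cd247 12.4 and 4.12, and Tyrobp, the ITAM chain of Trem receptors, 11.7 and 3.82. Tyrobp had no promoter window. Promoter peaks of both replicates were found at 2 of 5 macrophage markers (5.27 to 85.3%) and 2 of 6 T and B cell markers (4.33 to 77.7%). Of the macrophage markers, Adgre1 had 19.6 and 5.89, Spi1, which encodes PU.1, 13.8 and 5.41, and Mertk 15.0 and 4.32. Of the T and B cell markers, Pax5 had 14.4 and 6.20 and Cr2 12.4 and 6.48.

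**Figure D4:**
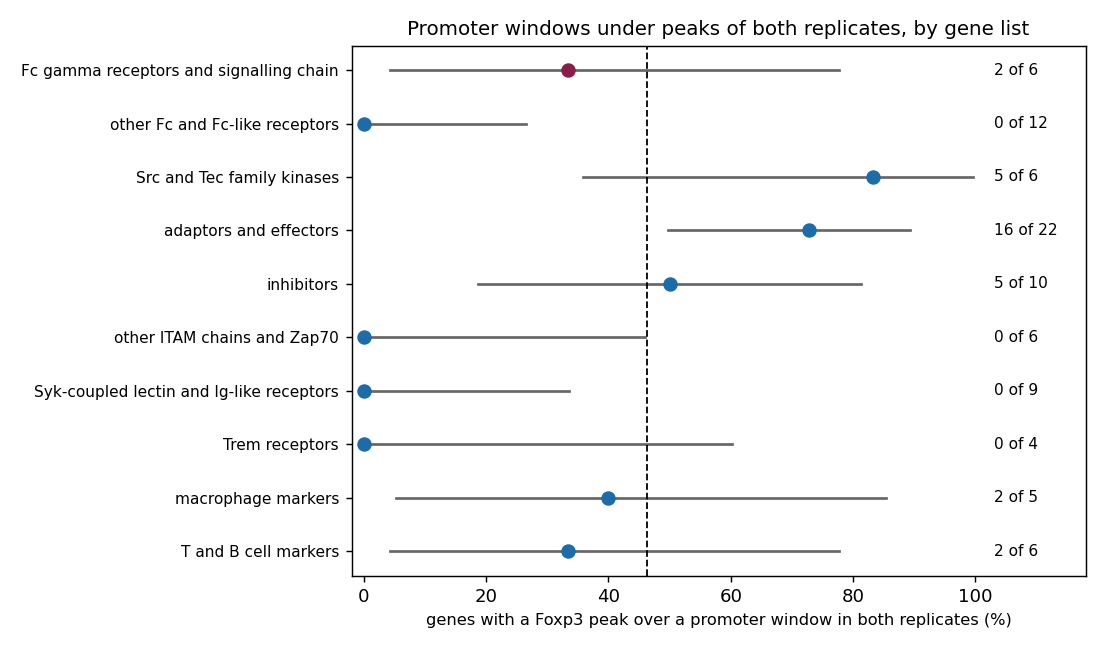
Share of genes with a Foxp3 peak over a promoter window in both replicates (%), for the Fc gamma receptors and signalling chain (dark red, top) and the other lists (blue), with 95% exact binomial intervals as lines and the counts at the right. The dashed line is the 46.3% of all protein-coding genes with a window. The kinases (5 of 6), adaptors (16 of 22) and inhibitors (5 of 10) lie above it, and the 4 receptor and chain lists with no such gene lie at 0. The intervals of the Fc gamma receptors and signalling chain, the kinases, the inhibitors, the Trem receptors and both marker lists cross the line.

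The gene most like each member was found by distance over 4 percentiles among all genes, namely the strongest fold enrichment and the peaks per 10 kb in each of the 2 libraries. Dpt was nearest to both Fcgr1 and Fcgr4, at distances of 4.34 and 3.98 percentile points, with strongest fold enrichments of 8.73 and 3.93. Kcnip2 was nearest to Fcgr2b at 1.55, and it too had peaks in replicate 1 (16) and none in replicate 2. Olfr1402 was nearest to Fcgr3 at 7.48, Zxdb to Fcer1g at 4.90 and Dzip1 to Syk at 5.47. The likeness is a description over 2 samples.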

How the data were processed

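CUT&RUN peak lists of 2 Foxp3 libraries from BMDMs were used. The submitters' processing notes name CASAVA 1.4 and mm10, and the sources used here give no aligner. The authors called peaks in each library alone with MACS 2.1.1.20160309, per the file headers, in paired-end mode at a q-value cutoff of 0.01, keeping duplicates and using no control library. Sites cut with any antibody, and fragments copied by PCR, can thus be among the peaks. Pileup, as deposited, is a signal: how many fragments cover the summit, unscaled for depth. Fold enrichment, as deposited, is a ratio of pileup plus 1 to a background that MACS took from the library itself, genome-wide or over 10000 bp. The deposited −log10 p and −log10 q are MACS values, and positions are 1-based.

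Genes and promoter windows came from RefSeq tables of GRCm38.p6. The gene table gives no exons, so exonic and intronic sites are not separated. The background term is the pileup plus 1 divided by the fold enrichment. A pair of peaks counts as shared with an overlap of 50% or more of each length. Intervals are 95% exact binomial (Clopper-Pearson) and cover counting error only. Genes and peaks are not replicates, and no test across genes or between conditions was run, since there is 1 condition. The counting was tested on simulated peak lists (Python 3.11.15, numpy 2.4.6, pandas 2.3.3, scipy 1.17.1).

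The members, the 9 other lists and the words searched were chosen with earlier results of these data known. Named were all members, the 3 genes of each list with the highest mean percentile of their strongest fold, and the gene most like each member at over 1 Mb from it. Results for some genes that the rule or the peaks would name are not reported here. The promoter windows, which give the strand, were added to the plan after the tables were seen. Alternatives changed the flank, the peak threshold, the overlap, the number of replicate 1 peaks and the replicate used.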

Additional observations from a re-analysis of the deposited data

How the results depend on the processing

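The counts of members are small, and many moved by over 1.5 times with the settings. The 5 members with a peak in both replicates became 3 with peaks of at least 5-fold enrichment and 3 with the strongest replicate 1 peaks in equal number ranked by fold; with either replicate left out the count was 5 to 6. The 2 members with a shared pair, and the 2 pairs, became 1 with gene spans alone and with 1 kb flanks. They also became 1 with at least 5-fold enrichment, with equal numbers ranked by −log10 q and with an overlap of 80%. In each of these settings the pair left was that of Fcgr3, over the tRNA genes. Without peaks over tRNA genes they became 1, that of Fcgr4, and with equal numbers ranked by fold 0. The counts rose to 4 members and 7 pairs with 10 kb flanks and to 5 members and 6 pairs with a 1 bp overlap. The 5 members with a site at an annotated end became 3 with at least 5-fold enrichment, 2 and 3 with equal numbers ranked by fold and by −log10 q, and 2 within 250 bp, and 5 to 6 with a replicate left out. The 2 members with a promoter peak in both replicates, Fcer1g and Syk, stayed 2 with either replicate left out. They also stayed 2 with equal numbers ranked by −log10 q, and became 1 (Syk) with equal numbers ranked by fold. The 3 members with a site within 1 kb of a start became 2 and 1 with equal numbers ranked by −log10 q and by fold. With a replicate left out they were 3 to 4. The promoter, start and tRNA alternatives were added after seeing the data. Apart from the narrower or wider windows, the stricter or looser overlaps and the smaller peak sets that the settings themselves impose, the cause was not tested. No paired analysis was possible because the single Foxp3 group has no second group with values. The lowest pileups called were 10 and 13 fragments in replicates 1 and 2, although replicate 2 held more fragments, and what sets this difference was not tested.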

Other observations

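Between the receptor genes of chromosome 1, beyond 5 kb from any of them, both replicates had a pair of further sites. The first (170983201 to 170983377 in replicate 1, and 170983206 to 170983405 in replicate 2) had fold enrichments of 2.91 and 4.32. Its summits lay 7254 and 7236 bp upstream of the Fcgr2b start, 18 bp apart. In replicate 1, 6.92% of peaks had an equal or lower fold enrichment, and in replicate 2 it was 63.2%. The second, between Fcgr4 and Fcgr3 (171044395 to 171044800 in replicate 1, and 171044617 to 171044817 in replicate 2), had fold enrichments of 10.3 and 6.09 (mean 8.20 ± 2.99, SD, n = 2) and summits 14 bp apart. The overlap of 184 bp was 45.3% of the replicate 1 peak, short of the 50% that counts as shared. The summits were 6441 and 6427 bp from the downstream end of Fcgr3 and beside the tRNA gene n-TGgcc4, which begins at 171044985. In replicate 1, 92.2% of all peaks had an equal or lower fold enrichment, and in replicate 2 it was 91.4%.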
